A study of Mus musculus with 4 samples.

Results

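The genes described here are 9 components of cytokine receptor signalling in mouse spleen cells: the SOCS family members Socs1, Socs2, Socs3, Socs5 and Cish, and the 4 Janus kinases Jak1, Jak2, Jak3 and Tyk2. They were taken by symbol from a deposited table of 17519 genes, and each symbol was found. Janus kinases sit on the intracellular tails of cytokine receptors. When a cytokine binds, they phosphorylate the receptor and the STAT transcription factors, which move to the nucleus. SOCS proteins are classically induced by STATs and act as feedback inhibitors: they bind phosphorylated receptors or the kinases, and through the SOCS box they recruit a ubiquitin ligase. In antigen presenting cells this circuit sets how long interferons, IL-6, IL-10 and other cytokines act.

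Both groups were MHC class II positive cells from the spleens of adult C57Bl.6 mice, isolated with magnetic beads. The day 1 PSA group comprised 3 libraries of cells cultured in Advanced RPMI1640 medium with fetal bovine serum for 24 h in the presence of PSA at 50 µg/ml. PSA, or polysaccharide A, is a capsular sugar polymer made by Bacteroides fragilis, a gut bacterium. The day 0 group was 1 library of freshly isolated cells that received no PSA. No library of cells cultured for a day without PSA was analysed here, so PSA and the day in culture cannot be told apart. Nothing in the labels says that the day 1 libraries are of different animals or cultures. The p-values therefore rest on a spread that may be technical, and they take day 0, with its single library, to vary as day 1 did. Bead isolation leaves a mixture of cell types, and in such RNA fewer cells of a type and less RNA per cell cannot be told apart.

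The day 0 library stood apart in ways that bear on every comparison. The estimated depth was 3062000, 3459000 and 4767000 fragments in the day 1 libraries and 217000 fragments at day 0. The number of genes listed at 0 was 2073 to 2663 in the day 1 libraries and 7378 at day 0. Levels are in FPKM, which divides the fragments of a gene by its transcript length and by the library total. They summed to between 580000 and 722000 FPKM in the day 1 libraries and to 5119000 FPKM at day 0. The 10 highest genes held 14.4 to 16.2% of that sum at day 1 and 80.0% at day 0, where Mir5105 and Gm12563 led. Across 13903 genes that reached 1 FPKM in any library, log2(FPKM + 1) correlated at 0.93 to 0.95 between day 1 libraries and at 0.58 to 0.61 between day 1 and day 0. The median log2 change of these genes was 0.59, and 0.018 for those above 0 at day 0, so changes are also given relative to the first of these medians. Of the B cell list 6 of 6 genes were above 0 in each library, with summed levels of 3036 to 3696 FPKM at day 1 and 3175 FPKM at day 0. One of them, Pax5, had 161, 158 and 165 FPKM at day 1 and 2118 FPKM at day 0, so it made up most of the day 0 sum.

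Of the 9 genes, Socs2, Jak3 and Tyk2 rose at day 1, Socs3 and Socs5 fell, and Socs1, Cish, Jak1 and Jak2 did not pass the test. The test was limma on log2(FPKM + 1) with Benjamini-Hochberg adjustment over all 13903 genes and a threshold of 0.05. The 3 that rose were 33.3% of the 9, beside 35.0% of all genes tested. The 2 that fell were 22.2%, beside 19.0% of all genes tested. These shares were near the background of all tested genes, and the median log2 change of the 9, 0.61, was also near that of all genes. That background includes 3875 genes listed at 0 at day 0. Among the 10028 tested genes above 0 at day 0, 2834 rose and 2719 fell. Of the 8 members among them, 4 rose and 2 fell. With the median of all genes set to 0, all tested genes gave 3034 rises and 3895 falls in place of 4869 rises and 2640 falls, while the 9 genes gave 3 rises and 2 falls under both. In none of the 9 did the day 0 value lie within the range of the day 1 values. For Socs1 the margin was narrow, with 3.89 FPKM at day 0 and 4.10 FPKM in the lowest day 1 library. The share of all tested genes for which this held was not counted, so it is not read as a trait of these 9.

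**Figure D1:**
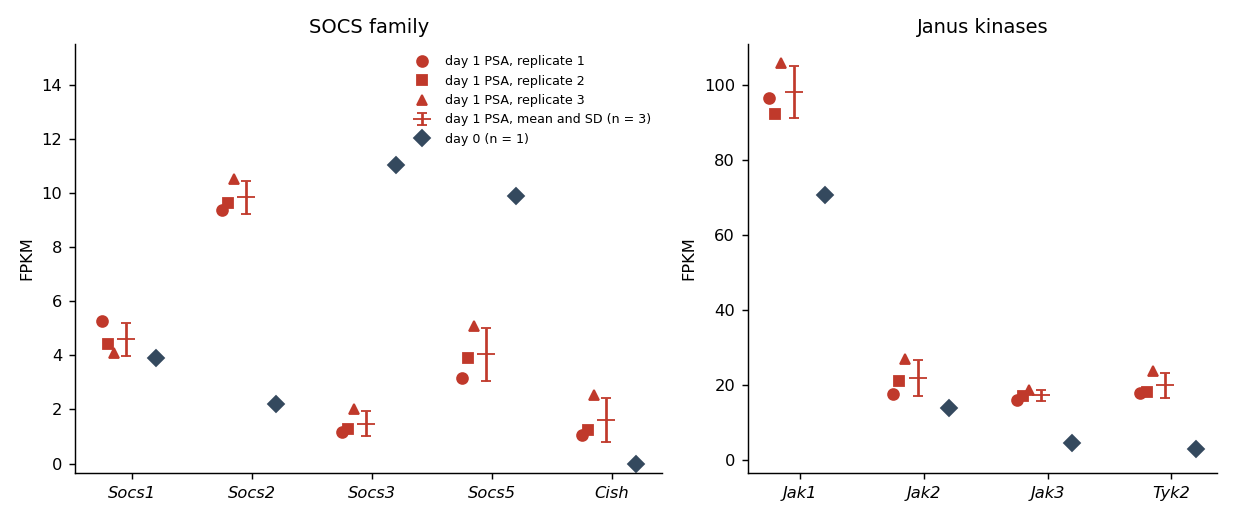
FPKM of each SOCS family member and each Janus kinase in the 3 day 1 PSA libraries (symbols by replicate, with mean and SD, n = 3) and in the 1 day 0 library (diamond). Socs3 and Socs5 sit below their day 0 diamonds, and the other 7 genes sit above theirs.

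Of the 5 SOCS family members described first, Socs3 had the largest change. The gene, at chr11:117966079-117970047 on the minus strand of GRCm38 (positions here are from GENCODE M21), encodes the inhibitor of signalling through gp130, the shared receptor chain of the IL-6 family. Socs3 had 1.17, 1.26 and 2.00 FPKM in the day 1 libraries and 11.02 FPKM at day 0. Each day 1 library was far below the day 0 library, and the mean of 1.48 ± 0.455 FPKM (SD, n = 3) was 7.45-fold lower. The log2 change was -2.29 ± 0.27 (SE, limma adjusted p = 0.0099), or -2.89 relative to the median of all genes. The rank of Socs3, taken from the same values, was also lower. Socs3 stood at percentiles 18.5 to 25.5 of the tested genes at day 1. At day 0, where 3875 tested genes tied at 0, it stood at percentile 64.1. It was the 1 gene of the 9 that the authors' deposited table also called, with a log2 fold change of -3.17 and a false discovery rate (FDR) of 2.73e-05. The share of all genes called higher at day 1 there was 0.28%, and the share called lower was 2.53%. Without day 1 replicate 2 the limma adjusted p for Socs3 was 0.058, and the log2 change was -2.24.

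Markers of several myeloid and lymphoid cell types moved with Socs3, and their part in its fall was not tested. Of the macrophage and monocyte list 7 of 10 genes fell and 2 rose, and the list summed to 68.9 to 79.7 FPKM at day 1 and 131 FPKM at day 0, with no gene at 0 at day 0. C1qa, a complement gene of tissue macrophages, had 0.982, 0.577 and 0.209 FPKM at day 1 and 23.2 FPKM at day 0. The 2 that rose were Cd68 and Adgre1. Cd68 had 29.0, 27.1 and 19.3 FPKM at day 1 and 8.15 FPKM at day 0. Adgre1 had 13.9, 14.5 and 17.1 FPKM at day 1 and 8.61 FPKM at day 0. The plasmacytoid dendritic cell list summed to 92.5 to 98.2 FPKM at day 1 and 465 FPKM at day 0, with 2 of 4 genes lower and 1 higher. The conventional dendritic cell list summed to 8.68 to 10.1 FPKM at day 1 and 15.2 FPKM at day 0, where the defining factor Zbtb46 was listed at 0, and 3 of 4 tested genes fell while 1 rose. The NK cell list summed to 11.4 to 14.7 FPKM at day 1 and 38.8 FPKM at day 0, where Ncr1 was listed at 0, and 2 of 3 tested genes fell.

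Socs5, at chr17:87107679-87137839 on the plus strand, fell less. Its product has been tied to IL-4 and epidermal growth factor receptor signalling. Socs5 had 3.14, 3.91 and 5.09 FPKM at day 1 and 9.89 FPKM at day 0. The day 1 values all lay below day 0, and their mean of 4.05 ± 0.980 FPKM (SD, n = 3) was 2.44-fold lower. The log2 change was -1.13 ± 0.28 (SE, limma adjusted p = 0.046), or -1.72 relative to the median. This call was close to the threshold: leaving out 1 day 1 library gave adjusted p values of 0.056 to 0.15. In the authors' deposited table Socs5 had a log2 fold change of -0.04 and an FDR of 1.

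Socs2, at chr10:95385362-95417180 on the minus strand, was the SOCS gene that rose. Its product, a target of STAT5 and a regulator of growth hormone signalling, is also known in dendritic cells. Socs2 had 9.35, 9.62 and 10.5 FPKM at day 1 and 2.203 FPKM at day 0. The 3 day 1 libraries lay close together and above day 0, with a mean of 9.83 ± 0.609 FPKM (SD, n = 3) that was 4.46-fold higher. The log2 change was 1.76 ± 0.14 (SE, limma adjusted p = 0.0055), or 1.16 relative to the median. The authors' deposited table gave Socs2 a log2 fold change of 1.36 with an FDR of 0.49. Its day 0 value corresponded to about 1.04 fragments.

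Socs1, at chr16:10782240-10785536 on the minus strand, and Cish, at chr9:107296026-107302784 on the plus strand, did not pass the test. Socs1, the inhibitor of interferon signalling that blocks kinase activity directly, had 5.27, 4.42 and 4.10 FPKM at day 1 and 3.89 FPKM at day 0. The day 1 values began just above the day 0 value, and the log2 change was 0.19 ± 0.19 (SE, limma adjusted p = 0.45). Relative to the median of all tested genes it was -0.41, which turns its direction. The median of genes above 0 at day 0, 0.018, would not turn it. Cish, a STAT5 target that restrains IL-2 and growth factor receptors, had 1.05, 1.24 and 2.52 FPKM at day 1 and was listed at 0 at day 0. The limma adjusted p of Cish was 0.070. It was 0.043 without day 1 replicate 3, and 0.018 with a pseudocount of 0.1 in place of 1. At the depth of the day 0 library the day 1 mean of Cish would give about 0.976 fragments, so no difference was detectable there.

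The start regions of Socs3 and Cish are printed because, of the 7 genes with a window in the RefSeq promoter table, they were the 2 that held the palindrome TTCNNNGAA, the sequence class that STAT dimers bind. Each window runs from 250 bases before the annotated start to 50 bases after it, on build GRCm38.p6, written 5′ to 3′ on the gene's strand, with the palindrome in capitals. Socs3 is given from chr11:117969317-117969616 on the minus strand, and Cish from chr9:107296409-107296708 on the plus strand. Both windows lie inside the GENCODE gene spans given above, so the start used here is not the first base of the GENCODE gene.
Socs3: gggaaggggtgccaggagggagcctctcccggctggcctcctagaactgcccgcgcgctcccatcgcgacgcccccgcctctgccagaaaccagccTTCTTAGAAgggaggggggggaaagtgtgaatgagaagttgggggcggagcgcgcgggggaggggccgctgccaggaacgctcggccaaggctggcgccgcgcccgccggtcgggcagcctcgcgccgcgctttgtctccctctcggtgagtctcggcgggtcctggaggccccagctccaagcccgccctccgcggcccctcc
Cish: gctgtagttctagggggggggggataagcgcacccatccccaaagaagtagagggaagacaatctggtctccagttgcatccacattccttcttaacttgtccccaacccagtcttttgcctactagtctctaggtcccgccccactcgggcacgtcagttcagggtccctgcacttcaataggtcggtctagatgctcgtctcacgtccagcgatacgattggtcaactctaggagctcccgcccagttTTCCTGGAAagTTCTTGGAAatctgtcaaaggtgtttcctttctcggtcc
In Socs3 the match TTCTTAGAA begins at position -154 from the start. In Cish the matches TTCCTGGAA and TTCTTGGAA begin at positions 1 and 12, where position 1 is the start base. The palindrome reads the same on both strands, and its second match in Cish does not overlap the first. Of 32851 windows in the table, 2726 (8.30%) held it. Socs1, Jak1, Jak2, Jak3 and Tyk2 had no match in these windows, and the windows of Socs2 and Socs5 were not analysed here. A match describes the letters alone, and Socs3, which fell, and Cish, which was not called, both carry one.

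All 4 Janus kinases had higher FPKM at day 1 than at day 0, and 2 of the 4 passed the test. Jak1 moved less than the median of all tested genes, 0.59, and more than that of genes above 0 at day 0, 0.018. Tyk2 lies at chr9:21104068-21131243 on the minus strand, where exons of an antisense gene overlap it by 554 bases. Tyk2, which serves type I interferon, IL-10 and IL-12 receptors, had 17.96, 18.2 and 23.8 FPKM at day 1 and 3.02 FPKM at day 0. The day 1 libraries stood well clear of day 0, with a mean of 19.96 ± 3.30 FPKM (SD, n = 3) that was 6.60-fold higher. The log2 change of Tyk2 was 2.37 ± 0.23 (SE, limma adjusted p = 0.0070), or 1.78 relative to the median, and the authors' deposited table gave 0.91 with an FDR of 0.65.

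Jak3 is the kinase that pairs with the common gamma chain of the IL-2, IL-4, IL-7 and IL-21 receptors and is largely restricted to blood cells. Its gene lies at chr8:71676296-71690575 on the plus strand. Jak3 had 16.0, 17.1 and 18.8 FPKM at day 1 and 4.56 FPKM at day 0. No day 1 library came near the day 0 value, and the mean of 17.3 ± 1.45 FPKM (SD, n = 3) was 3.79-fold higher. The log2 change was 1.71 ± 0.15 (SE, limma adjusted p = 0.0062), or 1.12 relative to the median, against 0.20 with an FDR of 1 in the authors' deposited table. Insl3, a neighbour on the same strand, shares 404 exon bases with Jak3. Insl3 had 10.2, 10.1 and 5.48 FPKM at day 1 and was listed at 0 at day 0, so the assignment of reads between Jak3 and Insl3 is uncertain.

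Jak1, the partner kinase of interferon, gamma chain and gp130 receptors, was the most abundant of the 9 in all libraries. Its gene lies at chr4:101152367-101265282 on the minus strand. Jak1 had 96.4, 92.1 and 106 FPKM at day 1 and 70.6 FPKM at day 0. All 3 day 1 libraries were higher than day 0, by 1.39-fold at the mean of 98.0 ± 6.92 FPKM (SD, n = 3). The log2 change of 0.47 ± 0.13 (SE) had a limma adjusted p of 0.057. Relative to the median of all tested genes it was -0.13, which turns its direction. The median of genes above 0 at day 0, 0.018, would not turn it. Jak2, at chr19:29251828-29313080 on the plus strand, which serves receptors for GM-CSF, IL-3, IL-5 and interferon gamma, had 17.7, 21.2 and 26.9 FPKM at day 1 and 13.8 FPKM at day 0. The Jak2 libraries of day 1 spread over more than the gap to day 0, and the log2 change was 0.61 ± 0.28 (SE, limma adjusted p = 0.16), or 0.014 relative to the median.

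**Figure D2:**
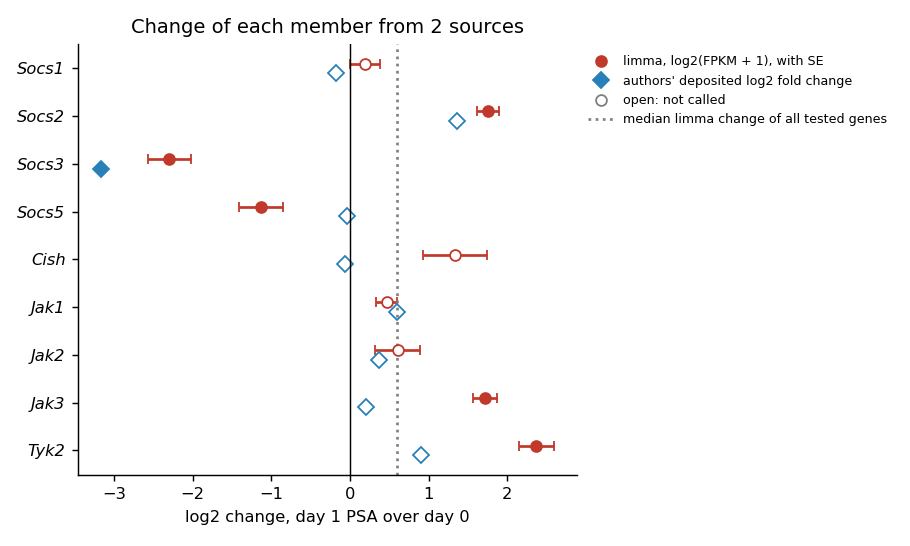
Log2 change of day 1 PSA over day 0 for each of the 9 genes, from limma on log2(FPKM + 1) (circles, with SE) and from the authors' deposited table (diamonds), with open symbols for genes that were not called. The dotted line is the median limma change of 0.59, and the sources differ in sign for Socs1 and Cish and lie apart for Socs5, Jak3 and Tyk2.

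The 2 sources gave the same direction for 7 of the 9 genes and different sizes. The authors' deposited table had a median log2 fold change of 0.20 over the 9 genes, and 0.038 over the tested genes. The scaling behind those folds is not given in the sources used here. Jak3 and Tyk2, called by limma, were not called in the authors' deposited table, and the same held for Socs2 and Socs5.

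The precision of the day 0 values was set by its depth. Taking the longest coding transcript of each gene, the day 0 value stood for about 74.5 fragments of Jak1, 14.98 of Jak2, 9.89 of Socs5 and 5.99 of Socs3. It stood for fewer of the rest: 3.94 fragments of Jak3, 3.14 of Tyk2 and 2.42 of Socs1. In the day 1 libraries the lowest such number was 8.96, for Socs3 in replicate 1, and the highest 2446, for Jak1 in replicate 3. Exact Poisson 95% intervals, which cover counting error only, ran at day 0 from 4.05 to 24.0 FPKM for Socs3, from 0.596 to 8.44 FPKM for Tyk2 and from 1.26 to 11.9 FPKM for Jak3. No day 1 value of these genes lay inside those intervals, and the same held for Jak1, at 55.0 to 88.0 FPKM. For Socs2 the interval was 0.0536 to 11.8 FPKM and held all 3 day 1 values, although limma, which does not know the depth, called it. The interval of Socs5, 4.80 to 18.4 FPKM, held 1 of the 3 day 1 values, and that of Cish reached up to 6.06 FPKM and held all 3.

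**Figure D3:**
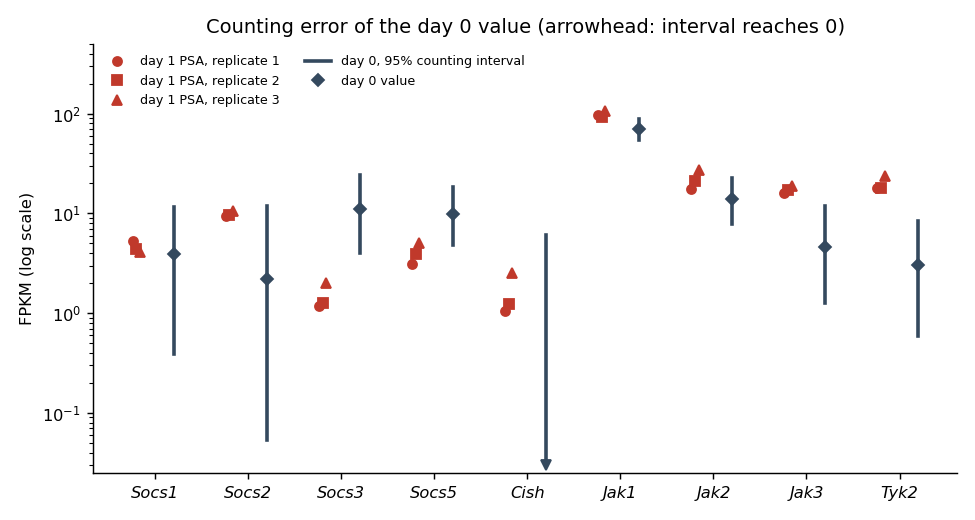
FPKM on a log axis for the 3 day 1 PSA libraries (red symbols by replicate) and the day 0 value (diamond) with its exact Poisson 95% counting interval (bar), which for Cish reaches 0. The day 1 symbols clear the bar for Socs3, Jak1, Jak3 and Tyk2 and fall inside it for Socs1, Socs2 and Cish.

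The make-up of the 5 SOCS genes and of the 4 kinases differed between the groups. Per-length levels of the 4 kinases summed to 148, 149 and 175 FPKM at day 1 and 92.0 FPKM at day 0, and those of the 5 SOCS genes to 19.99, 20.4 and 24.2 FPKM at day 1 and 27.0 FPKM at day 0. The SOCS sum was thus 0.135, 0.138 and 0.138 of the kinase sum in the day 1 libraries, which lay close together, and 0.294 at day 0. Socs2 made up 45.8 ± 2.03% of the SOCS sum at day 1 (SD, n = 3) and 8.16% at day 0. Socs3 made up 6.77 ± 1.31% at day 1 and 40.8% at day 0, and Socs5 18.6 ± 2.67% at day 1 and 36.6% at day 0. Of these 5 genes the highest was therefore Socs2 at day 1 and Socs3 at day 0, although the day 0 counting intervals of Socs1, Socs2, Socs3 and Socs5 overlap. Socs4 and Socs7 are not in this sum. At day 0 they had 10.5 and 13.8 FPKM, and Socs7 thus stood above Socs3, which had 11.02 FPKM. Among the kinases Jak1 led in both groups, with 62.5 ± 2.45% at day 1 and 76.7% at day 0, and Tyk2 held 12.6 ± 0.801% at day 1 and 3.29% at day 0. These shares and ratios carry no test.

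**Figure D4:**
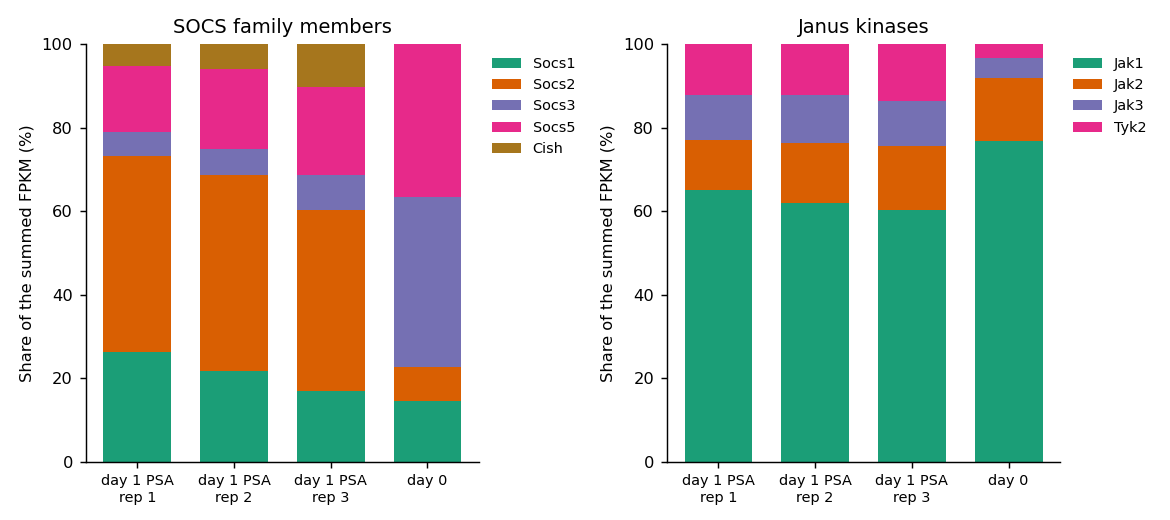
Share of each gene in the summed FPKM of the 5 SOCS genes described first (left) and of the Janus kinases (right), in percent. Bars are the 3 day 1 PSA libraries and the day 0 library, and Socs4 and Socs7 are not in the SOCS sum. Socs2 takes 45.8% of the SOCS sum on average at day 1 and 8.16% at day 0, while Jak1 is the largest part of the kinase sum in each library.

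In order of level at day 1, Jak1 came first, followed by Jak2, Tyk2 and Jak3, whose day 1 ranges overlap each other. Socs2 came next and overlapped neither neighbour. Socs1 and Socs5 overlapped each other, as did Cish and Socs3 at the low end. At day 0 the order was Jak1, Jak2, Socs3, Socs5, Jak3, Socs1, Tyk2, Socs2 and Cish, and the counting intervals of neighbours overlapped except for those of Jak1 and Jak2. Within the day 1 group, 8 of the 9 genes were highest in replicate 3, the exception being Socs1, which was highest in replicate 1. Replicate 3, the deepest library, was the highest for 41.2% of all tested genes.

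The genes whose profiles over the 4 libraries lay nearest to those of the called genes were found by Euclidean distance between log2(FPKM + 1) values centred on each gene's mean, among 9160 genes above 0 in every library. For Socs2 these were Adi1, an enzyme of methionine salvage, and Tbxa2r, the thromboxane receptor, at distances of 0.0196 and 0.0245. Adi1 was also nearest to Jak3, at 0.0591, followed by Socs2 itself at 0.0642. Tyk2 was nearest to Fbxo9 and Zfp68, at 0.0640 and 0.0697. Socs3 lay nearest to Chd4, a chromatin remodeller, and Stag3, at 0.0925 and 0.114, and Socs5 to Pfkfb1 and Sbno1, at 0.0380 and 0.0624. With 1 library at day 0, such profiles mostly record the size of 1 difference.

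Around the 9 genes, lists of the rest of the pathway held 99 genes, of which 88 were in the table and 77 were tested. Of these 28 rose (36.4%, against 35.0% of all tested genes) and 13 fell (16.9%, against 19.0%). The authors' deposited table called 1 of the 88 higher and 3 lower. Some lists stood higher than the overall median of 0.59 and others lower, and for all lists together the counts were near the background.

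Of the ligands, 6 of 9 tested rose and 2 fell, with a median log2 change of 1.93, and 5 of those that rose had no listed value above 0 in the day 0 library. Clcf1, a cytokine of the IL-6 family, had 48.1, 56.5 and 68.0 FPKM at day 1 and 5.12 FPKM at day 0. All Clcf1 values at day 1 were far above day 0 (log2 change 3.24 ± 0.24, SE, limma adjusted p = 0.0050), and it was the 1 pathway gene called higher in the authors' deposited table, at 2.17 with an FDR of 0.0065. Ebi3, the shared subunit of IL-27 and IL-35, had 14.8, 15.1 and 12.4 FPKM at day 1, and Il12a, a subunit of IL-12 and IL-35, had 5.84, 7.29 and 6.14 FPKM. Both were listed at 0 at day 0, and their log2 fold changes in the authors' deposited table were -0.16 for Ebi3 and -0.30 for Il12a. Csf2, which encodes GM-CSF, fell: it was listed at 0, 0 and 0.557 FPKM at day 1 and 6.10 FPKM at day 0. That day 0 value is below 7.08 FPKM, the level of 3 fragments for a 2 kb transcript there. The authors' deposited table gave Csf2 a log2 fold change of -2.44 with an FDR of 0.92.

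Receptor genes moved in both directions. In the common gamma chain list 2 of 8 rose and 2 fell, with a median of -0.11. Il2rg, the common gamma chain that carries Jak3, had 195, 201 and 212 FPKM at day 1 and 91.5 FPKM at day 0 (log2 change 1.14, limma adjusted p = 0.0074), and Il15ra had 6.10, 6.29 and 6.14 FPKM at day 1 and was listed at 0 at day 0. Il9r fell to 4.87, 3.42 and 4.32 FPKM at day 1, against 9.22 FPKM at day 0. Of the common beta chain list 2 of 5 rose (median 0.46), among them Il5ra, the IL-5 receptor of B-1 cells and eosinophils, with 8.43, 7.83 and 11.2 FPKM at day 1 and 0.769 FPKM at day 0. In the list of gp130 and IL-12 family receptors 2 of 6 rose and 1 fell (median 0.43). Il27ra, the IL-27 receptor, had 24.2, 17.5 and 17.8 FPKM at day 1 and 1.74 FPKM at day 0, while Il6ra, the IL-6 receptor, fell to 1.68, 1.23 and 2.72 FPKM at day 1, against 8.35 FPKM at day 0. Of the interferon and IL-10 family receptors 3 of 7 rose and none fell (median 0.66): Ifnar1, Il10rb and Ifngr2. Ifnar1, the interferon receptor chain that binds Tyk2, had 20.5, 22.0 and 23.9 FPKM at day 1 and 3.49 FPKM at day 0. The day 0 values of Il15ra, Il5ra, Il27ra and Ifnar1 lie below 7.08 FPKM, the level of 3 fragments for a 2 kb transcript there. The authors' deposited table called no gene of these receptor lists. Its log2 fold changes were 0.36 for Il2rg, 0.85 for Il5ra, 0.63 for Il27ra and 0.97 for Ifnar1.

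Of the STAT genes 4 of 7 rose and none fell, with a median of 0.51. Stat4, which IL-12 activates through Tyk2 and Jak2, had 38.2, 46.8 and 46.0 FPKM at day 1 and 5.28 FPKM at day 0 (log2 change 2.82, limma adjusted p = 0.0041). Stat6, the IL-4 factor, had 77.7, 79.8 and 79.5 FPKM at day 1 and 14.1 FPKM at day 0 (2.40, limma adjusted p = 0.0031). Both had several times higher FPKM in each day 1 library than at day 0. The authors' deposited table called neither, with smaller log2 fold changes of 1.404 for Stat4 and 0.47 for Stat6. The day 0 value of Stat4 lies below 7.08 FPKM, the level of 3 fragments for a 2 kb transcript there. Stat3, the factor of IL-6 and IL-10 and a classical inducer of Socs3, did not pass the test. Stat3 had 24.1, 33.8 and 62.1 FPKM at day 1 and 113 FPKM at day 0. The day 1 libraries differed widely from each other: the limma log2 change of Stat3 was -1.58 ± 0.62 (SE, adjusted p = 0.11), and the authors' deposited table gave -0.17.

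The remaining SOCS genes in the table, Socs4 and Socs7, both fell. Socs7 had 1.68, 1.73 and 2.07 FPKM at day 1 and 13.8 FPKM at day 0, a change of -2.39 ± 0.17 on the log2 scale (SE, limma adjusted p = 0.0046), against -2.20 with an FDR of 0.057 in the authors' deposited table. Socs4 had 3.81, 3.18 and 4.50 FPKM at day 1 and 10.5 FPKM at day 0, and changed by -1.26 ± 0.22 on the log2 scale (SE, limma adjusted p = 0.021), against -0.97 with an FDR of 0.56 in the authors' deposited table. For both genes each day 1 value lay below the day 0 value, and no counting interval was computed for either. Of the 5 partners that build the ubiquitin ligase on the SOCS box, Rnf7 rose to 22.8, 26.3 and 23.5 FPKM at day 1, against 7.79 FPKM at day 0. The authors' deposited table gave Rnf7 the other direction, at -0.35, and did not call it. The other partners did not pass the test (list median 0.18). Other inhibitors of the pathway gave 3 rises and 2 falls among 13 (median 0.38). Pias3, an inhibitor of Stat3, had 19.0, 16.9 and 24.8 FPKM at day 1 and 1.74 FPKM at day 0, and Pias1, of the same inhibitor family, fell to 14.1, 11.98 and 12.3 FPKM at day 1, against 48.4 FPKM at day 0. Cbl, a ubiquitin ligase, also fell, and the tyrosine phosphatases Ptpn2 and Ptpn11 rose. The authors' deposited table called neither phosphatase, with log2 fold changes of -0.12 for Ptpn2 and 0.14 for Ptpn11. It gave Pias3 1.42 with an FDR of 0.11 and Pias1 -1.42 with an FDR of 0.29. The day 0 values of Pias3 and Ptpn11 lie below 7.08 FPKM, the level of 3 fragments for a 2 kb transcript there.

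Of 15 target genes of the pathway 5 rose and 4 fell, with a median of -0.25. Junb, an AP-1 subunit and early response gene, had 40.3, 47.4 and 47.0 FPKM at day 1 and 274 FPKM at day 0 (log2 change -2.59, limma adjusted p = 0.0039). Myc had 20.6, 24.0 and 28.1 FPKM at day 1 and 78.1 FPKM at day 0 (-1.66, limma adjusted p = 0.012). Both were called lower in the authors' deposited table too, as was Cebpb, which makes these, with Clcf1, the 4 pathway genes called there. Ccnd2 fell while Ccnd3, another D cyclin, rose. With the median of all genes set to 0, the target list gave 3 rises and 7 falls, and the list of other inhibitors gave 1 rise and 4 falls. Under the same setting the gp130 and IL-12 family receptors gave 1 rise and 2 falls, and the common gamma chain list 2 rises and 3 falls. The interferon and IL-10 family receptors then gave 3 rises and 1 fall, the SOCS box partners 1 rise and 1 fall, and the common beta chain list 1 rise and 0 falls. The ligands gave 5 rises and 2 falls, the STAT genes 3 rises and 0 falls, and Socs4 and Socs7 both fell.

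**Figure D5:**
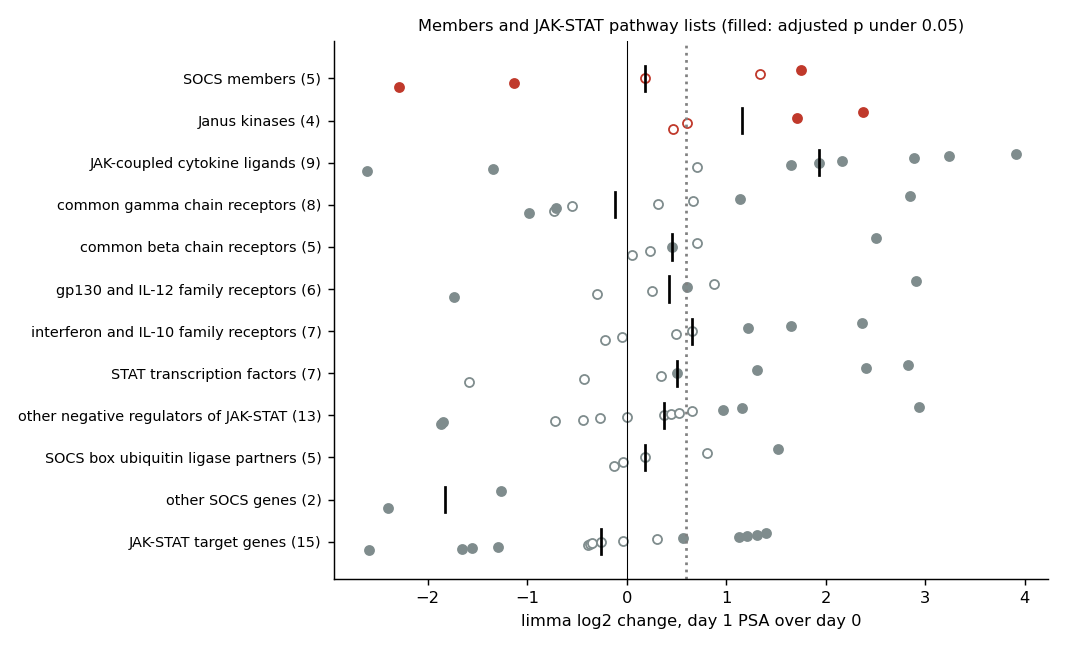
Limma log2 change of day 1 PSA over day 0 for the genes of each list, with filled points for an adjusted p under 0.05, black ticks at list medians, the number of genes tested in brackets and the dotted line at the median of all tested genes, 0.59. Points of most lists lie on both sides of 0, while Socs4 and Socs7 both lie below it.

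The remaining marker lists are given beside the rises of Jak3, Tyk2 and Socs2, and their part was not tested. In the B cell list 4 of 6 genes rose and Pax5 fell. The T cell list summed to 63.2 to 94.9 FPKM at day 1 and 92.4 FPKM at day 0, with 1 of 5 genes higher and 1 lower. The neutrophil list summed to 39.0 to 60.2 FPKM at day 1 and 13.4 FPKM at day 0, where S100a9, Camp and Ngp were listed at 0. The antigen presentation genes of the MHC class II pathway summed to 15201 to 18993 FPKM at day 1 and 10478 FPKM at day 0. The erythroid list summed to 1829 to 4694 FPKM at day 1 and 3377 FPKM at day 0, and none of its genes passed the test.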

How the data were processed

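RNA of 4 libraries was sequenced on an Illumina HiSeq, per the labels' protocols. The submitters' processing notes name the tools TopHat 1.4.1, cutadapt, Cuffdiff and Cufflinks 2.2.1 and the build GRCm38.p6. No source used here gives strand handling or the annotation release, so reads of overlapping antisense genes at Cish and Tyk2 cannot be told apart. The authors deposited FPKM values per library, which Cufflinks made per the labels' protocols. The deposited table also holds log2 fold changes, logCPM, p-values and FDR values per the file headers, which name no test.

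Values were tested with limma 3.58.1 (trend, R 4.3.3) on log2(FPKM + 1), for genes of at least 1 FPKM in any library, with 2 residual degrees of freedom. The script was tested on simulated data first. The limma simulation drew every library from the day 1 mean and spread, so it does not cover the low depth of day 0. Of 17519 gene IDs, 16232 were found in GENCODE M21 (GRCm38), which gave lengths and overlaps. Depth was estimated from the steps of low FPKM values in 1182 single-transcript genes. Of low values, 63.8 to 72.4% lay within 0.1 of a whole fragment. The step was chosen to fit these same values, and 20% is the share for a step not so chosen. For a 2 kb transcript, 3 fragments equal 0.323 to 0.503 FPKM at day 1 and 7.08 FPKM at day 0.

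The 9 genes and the lists were chosen with earlier results of these data known. The text names all 9 genes, up to 4 genes of each list with the largest absolute change, and the 2 nearest profiles of each called gene; genes of the lists named beyond these were chosen after their values were seen. The 11 alternatives changed the pseudocount, filter, scaling, trend or libraries.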

Additional observations from a re-analysis of the deposited data

How the results depend on the processing

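Of the 9 genes, Socs2, Jak3 and Tyk2 rose under each of the 11 alternatives, with limma adjusted p values of at most 0.048, 0.049 and 0.049. Socs3 fell under 10 of 11 (adjusted p 0.0055 to 0.058). Of the 9, the number that fell was 2 in the main analysis, 1 with a pseudocount of 0.1, 1 with no filter on low values, and 0 to 1 when 1 day 1 library was left out. Socs5 was the gene lost in the first pair of settings, with adjusted p values of 0.052 and 0.054. Jak1 was called among genes above 0 at day 0 (adjusted p = 0.0498; range over the alternatives 0.0498 to 0.48). Over all tested genes limma called 7509, and 3634 to 5887 with 1 day 1 library left out, the lowest without replicate 2; the cause was not tested. Among the 10028 tested genes above 0 at day 0 there were 2834 rises and 2719 falls. The pseudocount of 10 was added after the data were seen. No paired analysis was possible because day 0 has a single library. Leaving out the day 0 library leaves no comparison, so no result is free of its depth.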
